A study of Mus musculus with 3 samples.

Results

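The 9 heat-shock chaperone genes followed through the immune cells of 4T1 mammary tumors were Hspa1a, Hspa1b, Dnajb1, Hsph1, Hspa8, Hsp90aa1, Hsp90ab1, Hspd1 and Hspe1. These 9 of the 32285 genes in the count matrices were taken by symbol, and they were chosen by the measured Hspa1a level, which an earlier look at these data had found lower in both groups with p38 blocked. The 4T1-luc line, a mouse mammary carcinoma line that carries luciferase, was implanted (200000 cells) into the fourth mammary fat pad of female BALB/c mice aged 6 to 8 weeks. The Veh group received DPBS. The p38i group received the p38 MAPK inhibitor LY2228820 (ralimetinib) by gavage at 30 mg/kg each day for 10 days, starting on day 4. The p38KO group bore tumor cells of 1 clone, H9, in which the p38α gene Mapk14 had been disrupted with CRISPR-Cas9, and these mice received no treatment. Tumors were taken on day 14, 3 tumors per group were pooled, and live CD45+ cells were sorted and sequenced as 1 library per group.

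All p38KO leukocytes came from hosts with an intact Mapk14 gene, so the deleted gene could not be used to check the label: Mapk14 was read at 33.7, 42.1 and 39.1 unique molecular identifiers (UMIs, tags that count each captured transcript once) per 1000000 in the Veh, p38i and p38KO libraries. After cells with fewer than 1500 UMIs, fewer than 300 genes or more than 20% mitochondrial UMIs were removed, 3820, 4793 and 3859 cells remained, with 20795195, 24210342 and 24374173 UMIs. Cells were sorted into classes by raw counts of a few transcripts, and a cell entered a class when it met exactly 1 gate. The gates were Csf3r or Cxcr2 for neutrophils, Ly6c2 together with Fn1 for monocytes, C1qa for macrophages, Cd3e for T cells, Ncr1 for NK cells and Flt3 for dendritic cells. They held 8740 of the 12472 cells, while 1457 met no gate and 2275 met several. The share that met several was 15.5%, 12.2% and 28.5% in the Veh, p38i and p38KO libraries. Every other marker checked was highest in its own class in each library, except Ccr7 of the dendritic cell list in the Veh library. At most 9 cell barcodes were found in any pair of libraries, and no doublets were removed.

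Heat-shock proteins keep other proteins folded. When misfolded protein builds up, the transcription factor HSF1 binds heat shock elements, made of inverted repeats of GAA, in front of stress-inducible chaperone genes and raises their transcription within minutes. Hspa1a and Hspa1b encode the inducible cytosolic Hsp70, which works with the Hsp40 co-chaperone Dnajb1 and the Hsp110 nucleotide exchange factor Hsph1. Hspa8 encodes Hsc70, the Hsp70 made without stress. Hsp90aa1 and Hsp90ab1 encode the inducible and the constitutive cytosolic Hsp90, and Hspd1 and Hspe1 encode Hsp60 and Hsp10, the chaperonin of the mitochondrial matrix.

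Hspa1a (ENSMUSG00000091971) and Hspa1b (ENSMUSG00000090877) lie side by side on the minus strand of chromosome 17, at chr17:34969190-34972156 and chr17:34956436-34959238 of GRCm38 in the GENCODE vM21 annotation, with 9951 bases between them. Hspd1 (chr1:55077835-55088243, minus strand) and Hspe1 (chr1:55088132-55091307, plus strand) are a head-to-head pair that overlaps by 112 bases. The remaining members are single genes elsewhere: Dnajb1 at chr8:83608193-83612653, Hsph1 at chr5:149614287-149636376, Hspa8 at chr9:40800984-40810087, Hsp90aa1 at chr12:110690605-110702728 and Hsp90ab1 at chr17:45567775-45573271. Promoter windows of 300 bases from RefSeq on GRCm38.p6, covering 250 bases before and 50 after a transcription start, matched 6 of the 9 members (9 windows, since some genes had several starts). The bases before the starts of Hspa1a (chr17:34972157-34972406) and Hspa1b (chr17:34959239-34959488) are shown because the levels of this pair differed most between the libraries. The element of Hspe1 (chr1:55088053-55088082) is shown as the contrast, from a gene whose level differed less. Capitals mark inverted GAA repeats, spelled GAANNTTC or TTCNNGAA. Each reads the same on both strands, and neighbouring matches may share a repeat.
Hspa1a: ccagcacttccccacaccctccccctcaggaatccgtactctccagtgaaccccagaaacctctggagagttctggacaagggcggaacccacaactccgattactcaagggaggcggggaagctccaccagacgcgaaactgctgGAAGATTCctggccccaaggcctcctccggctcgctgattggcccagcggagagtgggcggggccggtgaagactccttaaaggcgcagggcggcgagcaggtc
Hspa1b: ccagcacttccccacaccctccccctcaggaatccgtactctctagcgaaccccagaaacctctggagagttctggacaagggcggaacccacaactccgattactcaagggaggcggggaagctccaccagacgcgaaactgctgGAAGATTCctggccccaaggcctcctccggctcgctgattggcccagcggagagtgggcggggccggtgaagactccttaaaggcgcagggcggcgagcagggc
Hspe1: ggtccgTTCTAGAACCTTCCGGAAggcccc
Each Hsp70 promoter held 1 repeat pair, GAAGATTC, that began 104 bases before the start. Over the full 300 bases the pair of promoters was identical at 296 positions (98.7%). Counted from 1 at the 5′ end, with the base of Hspa1a first, the substitutions were C44T, T47C, T249G and C276T, none of them in the capitals. The Hspe1 window and the overlapping Hspd1 window held 3 chained pairs, the same element read from opposite sides. Both Hsph1 windows held 3 pairs, and neither Dnajb1 window held any. A pair was found in 6 of the 9 member windows, from 5 of the 6 genes, against 15.1% of 32851 promoters of this length (7.86% for GAANNTTC and 8.52% for TTCNNGAA). A match is a description of letters and does not show that HSF1 was bound. Hspa1a and Hspa1b shared no stretch of 90 bases with another gene, or with each other, in the last 500 transcript bases, where 3′ reads fall, so reads of that length could be told apart there. Such stretches made up 49.9% of the windows of Hspa8, 32.8% of Hsp90aa1, 18.6% of Hspd1 and 18% of Hspe1. The levels of these 4 genes are therefore less certain.

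Levels below are UMIs per 1000000 UMIs of the same class and library (CPM), and changes are log2 ratios to the Veh library. Square brackets hold 95% intervals, which cover counting error only. With 1 library per group there was no spread between mice to compare with, no test was made, and the group cannot be told apart from the library or the pool of tumors. A ratio was called when it was at least 0.5 either way, its interval left out 0 and both libraries together held at least 20 UMIs. Both comparisons use the same Veh library. Scaling by the median ratio of all genes in place of the total would move each ratio by its median, which was 0.13 and 0.09 in neutrophils (p38i and p38KO), 0.08 and 0.13 in T cells and within 0.07 of 0 in the other classes. Because Hspa1a in these libraries chose the members, the ratios describe the libraries and support no inference. Of the 108 ratios of the 9 members to the Veh library over 6 classes, 26 were called. Under 11 other ways of processing (gates, filters, scaling, depth and the weight of single cells), 6 of the 26 kept their call each time: Hspa1a and Hspa1b in neutrophils for p38i and p38KO, and in T cells for p38i. The other 20 lost it at least 1 time, as given beside them. Calls gained in an alternative are not in this count.

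The inducible Hsp70 genes were lower in neutrophils of both groups with p38 blocked. Hspa1a had 113 CPM in Veh (662 UMIs in 1895 cells), 34.3 in p38i (250 UMIs in 2395 cells) and 25.7 in p38KO neutrophils (97 UMIs in 1448 cells). The log2 ratios were -1.72 [-1.93, -1.50] for p38i and -2.13 [-2.46, -1.82] for p38KO. Hspa1b had 72.1, 34.6 and 35.0 CPM, or -1.06 [-1.29, -0.83] and -1.04 [-1.34, -0.76]. The Veh library was the high one for both genes, and both libraries with p38 blocked were below it. The alternatives for Hspa1a number 12, which are the 11 above and its sum with Hspa1b. Over them the Hspa1a ratio kept its sign and ran from -2.03 to -0.80 for p38i and from -2.81 to -1.08 for p38KO. The -0.80 came where 2 UMIs of a gate transcript were asked for. These were the only members called in neutrophils: 2 of 9 were called lower and none higher in each comparison, where 2.94% of all genes tested were called lower and 11.1% higher for p38i, and 2.8% and 8.36% for p38KO. Nothing is read from these shares, here or in the other classes, since the same contrast chose the genes.

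With the main settings, T cells differed between the 2 interventions. Hspa1a had 46.7, 13.6 and 37.7 CPM in Veh, p38i and p38KO T cells (130, 38 and 78 UMIs), so that p38i was the low library at -1.78 [-2.34, -1.24], while p38KO, at -0.31 [-0.73, 0.11], could not be told from Veh at this depth. Over the alternatives these ratios ran from -2.31 to -1.59 and from -1.04 to -0.27. The -1.59 came from Hspa1a and Hspa1b summed. Hspa1a was called lower for p38KO too with cells thinned to 1500 UMIs, at -1.04 [-1.88, -0.26]. A monocyte gate of Ly6c2 or Fn1 also gave this call, at -0.97 [-1.50, -0.46]. So did 2 UMIs of a gate transcript, every cell counting equally, and leaving out the deepest 5% of cells or the cell with most UMIs. The ratio of p38KO to p38i was 1.47 [0.89, 2.07]. Hspa1b had 97.0, 34.1 and 57.5 CPM (270, 95 and 119 UMIs), with -1.51 [-1.86, -1.17] for p38i and -0.76 [-1.08, -0.44] for p38KO, both called, the latter lost (-0.50) with cells held to 5 UMIs. Members called lower were therefore 2 of 9 for p38i and 1 of 9 for p38KO, with none higher. The background was 2.18% lower and 5.53% higher for p38i, and 3.16% and 8.68% for p38KO.

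In dendritic cells, only 36, 68 and 46 in number, Hspa1a was lower in both groups with p38 blocked. The levels were 172, 58.2 and 50.6 CPM (81, 40 and 31 UMIs), at -1.56 [-2.14, -1.0] for p38i and -1.76 [-2.41, -1.15] for p38KO. Hspa1b had 142, 102 and 55.4 CPM, with -0.48 [-0.98, 0.03] for p38i, which was not called, and -1.36 [-2.0, -0.74] for p38KO. A single p38i cell held 42 Hspa1b UMIs. Without the cell of most Hspa1b UMIs in each library the ratios were -1.35 for p38i and -1.82 for p38KO. With thinned cells no dendritic cell call remained for this pair (-1.18 and -1.94 for Hspa1a, -0.77 for p38KO Hspa1b), and with every cell counting equally the Hspa1b call was also lost, at -0.56. Both genes were lowest in the p38KO library, but for each gene the intervals of the p38i and p38KO ratios overlapped. Among all members, 2 of 9 were called lower for p38i and 6 of 9 for p38KO, with none higher, over a background of 3.66% lower and 6.4% higher for p38i, and 3.99% and 5.28% for p38KO.

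In monocytes Hspa1a was called lower for p38KO only. It had 160, 139 and 89.5 CPM, with -0.20 [-0.48, 0.08] for p38i and -0.84 [-1.29, -0.40] for p38KO. Hspa1b had 127, 91.1 and 65.5 CPM, at -0.48 [-0.81, -0.15], short of the threshold, and -0.96 [-1.49, -0.45], called. The p38KO calls of both genes were lost with cells held to 5 UMIs, at -0.52 for Hspa1a and -0.04 for Hspa1b, and that of Hspa1a also with thinned cells, at -0.41. No member was called lower for p38i and 1 (Hsph1) was called higher, against 4.2% and 4.4% of all genes. For p38KO, 4 of the 8 members with enough counts were called lower and none higher, against 3.47% and 4.64%.

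Macrophages were the only class in which Hspa1a was called higher in either comparison. The levels were 52.4, 84.6 and 59.4 CPM (109, 193 and 279 UMIs), at 0.69 [0.34, 1.04] for p38i and 0.18 [-0.15, 0.51] for p38KO. Hspa1b went the other way, with 78.4, 58.3 and 64.9 CPM and ratios of -0.43 and -0.27 that were not called. The p38i sign was not stable: over 12 alternative ways of processing, the Hspa1a ratio ran from -0.93 to 0.80 for p38i, and 6 of them kept the sign, while for p38KO it ran from -2.08 to 0.43. Placing cells of several gates in the gate with most UMIs, for instance, gave -0.93 and -1.13. The 6 that kept the p38i sign include the sum of Hspa1a and Hspa1b, at 0.13. For p38i, 1 member (Hsph1) was called lower and 1 (Hspa1a) higher, against 4.56% and 2.75% of all genes. For p38KO, 1 (Hsph1) was called lower and none higher, against 4.27% and 7.16%.

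NK cells had little Hspa1a in any library: 20.3, 1.54 and 7.01 CPM from 12, 1 and 5 UMIs, too few to call. Hspa1b had 50.8, 7.71 and 12.6 CPM from 30, 5 and 9 UMIs, at -2.72 [-4.44, -1.34] and -2.01 [-3.27, -0.90], both called. One Veh cell held 22 of the 30 Hspa1b UMIs and another 10 of the 12 Hspa1a UMIs, and without the cell of most UMIs of each gene no member was called lower in both groups. Of the 8 members with enough counts, 1 was called lower and 1 (Hsp90aa1) higher for p38i, against 5.72% and 3.16%. For p38KO it was 1 of 8 lower and none higher, against 6.64% and 5.3%.

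**Figure D1:**
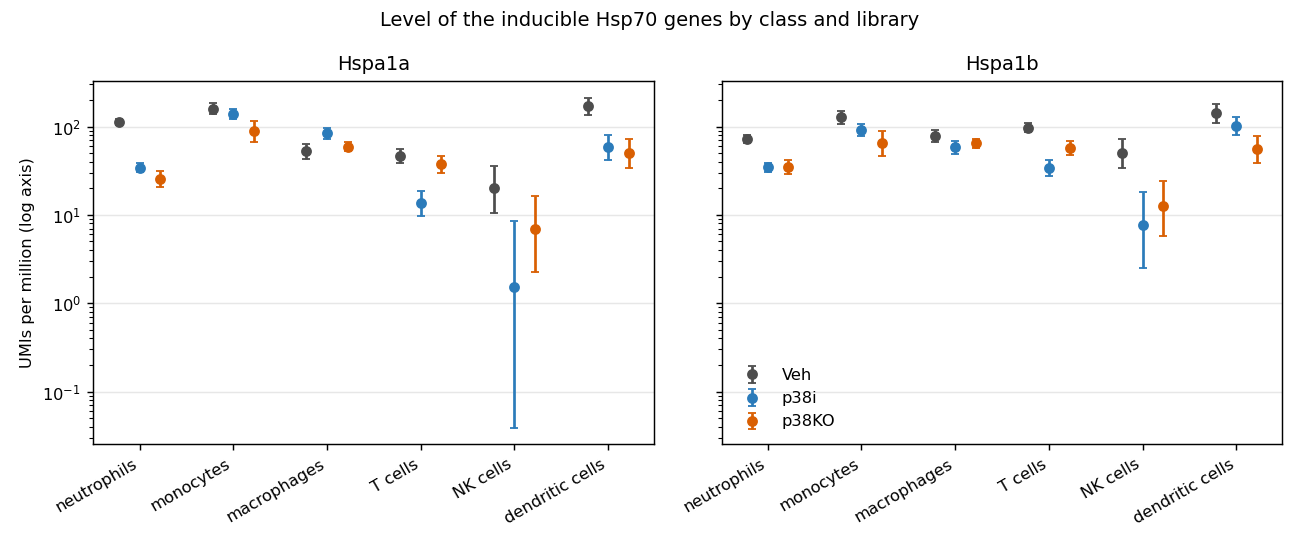
Hspa1a (left) and Hspa1b (right) in UMIs per 1000000, on a log axis, for 6 gated cell classes in the Veh, p38i and p38KO libraries. Bars are exact Poisson 95% intervals that cover counting error only. The Veh point is the highest of the 3 for both genes in neutrophils, monocytes, T cells, NK cells and dendritic cells, and for Hspa1a in macrophages the p38i point (84.6) lies above Veh (52.4).

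**Figure D2:**
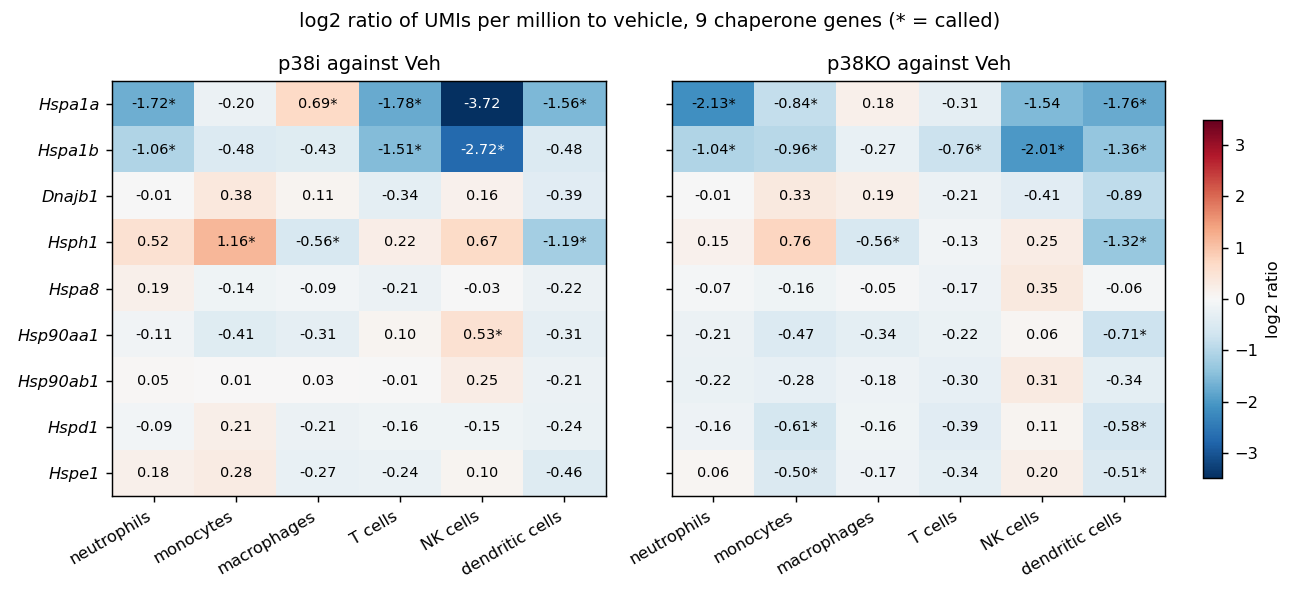
Log2 ratio to the Veh library of the 9 chaperone genes (vertical) in 6 cell classes (horizontal), p38i and p38KO in separate panels, with blue for lower, red for higher and an asterisk for a called ratio. Most called values sit in the Hspa1a and Hspa1b lines, and Dnajb1, Hspa8 and Hsp90ab1 have none.

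Few cells carried most of the Hspa1a transcripts. In Veh neutrophils 1 cell held 205 of the 662 Hspa1a UMIs (31%), from a total of 1960 UMIs in that cell, of which 0.459% were mitochondrial. It also held 53 UMIs of Hspa1b, 14 of Hsp90aa1, 5 of Hspa8 and 2 of Dnajb1, while Hsph1, Hsp90ab1, Hspd1 and Hspe1 were at 0. The next cells held 51 and 24, and the 10 highest cells 59.7%. The highest p38i neutrophils held 25, 19 and 10 UMIs, and the highest p38KO neutrophils 11, 7 and 7. Without the cell of most Hspa1a UMIs in each library the neutrophil ratios were -1.33 and -1.77. With every cell counted at 5 UMIs or fewer they were -0.93 and -1.08, so the direction held and the size was smaller. Both settings were chosen after the values were seen.

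In p38i macrophages 1 cell held 89 of the 193 Hspa1a UMIs (46.1%), against 35 and 54 in the highest Veh and p38KO macrophage. Without these cells the p38i ratio was 0.36, and with cells held to 5 UMIs it was -0.13. The 10 highest cells held 92.2% of the p38i UMIs, so the level of this class described few of its 162 cells. The highest monocytes held 58, 42 and 15 UMIs and the highest dendritic cells 18, 14 and 12. T cells were more even in the Veh library, where the highest cell held 12 UMIs (9.23% of the class), against 10 (26.3%) and 16 (20.5%) in p38i and p38KO. The T cell ratio for p38i was -2.08 without the highest cell and -1.63 with cells held to 5 UMIs.

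**Figure D3:**
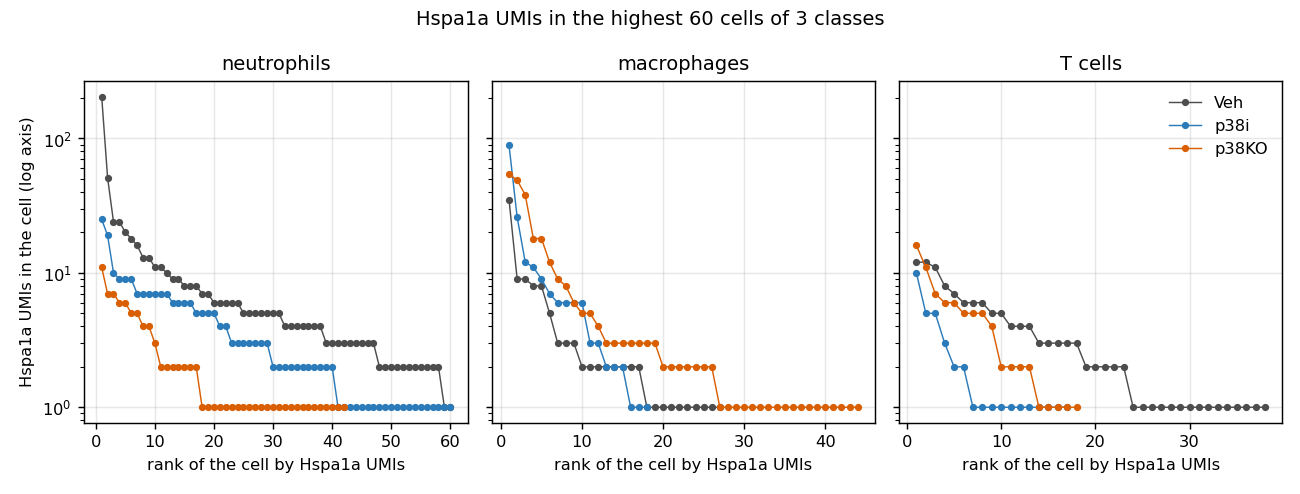
Hspa1a UMIs in the 60 cells with most of them, ranked along the horizontal axis, in neutrophils, macrophages and T cells of the 3 libraries (log vertical axis). One Veh neutrophil reaches 205 UMIs and one p38i macrophage 89, while no T cell exceeds 16.

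The share of cells with at least 1 Hspa1a UMI was compared after each cell was thinned to 1500 UMIs, which takes depth out of the comparison. In neutrophils it was 4.22% (95% Clopper-Pearson interval 3.36 to 5.23%) in Veh, 2.25% (1.70 to 2.93%) in p38i and 2.0% (1.35 to 2.86%) in p38KO, or 80, 54 and 29 cells. The Veh interval did not overlap those of the other libraries. Unthinned, the shares were 5.59%, 3.01% and 2.90%. Positive neutrophils also held more UMIs each in Veh: 6.25, 3.47 and 2.31 on average at their own depth. The Veh library was thus higher both in the share of cells with the transcript and in the UMIs per such cell. The UMIs per cell are not at equal depth (median 2484, 2235 and 2155 UMIs), and the Veh mean includes the cell with 205. Cells with 3 or more thinned UMIs numbered 27, 11 and 3.

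In T cells the thinned share with Hspa1a was 5.65% (3.73 to 8.17%), 1.72% (0.827 to 3.14%) and 2.73% (1.37 to 4.83%), and that with Hspa1b 8.70% (6.28 to 11.7%), 3.95% (2.52 to 5.87%) and 5.71% (3.65 to 8.44%). The p38i interval lay below the Veh interval for both genes, and the p38KO interval overlapped the Veh interval for both. Monocytes had 13.1% (7.98 to 20%), 8.06% (4.76 to 12.6%) and 7.23% (2.70 to 15.1%) with Hspa1a, and macrophages 6.16% (2.86 to 11.4%), 6.17% (3.00 to 11.1%) and 4.64% (2.73 to 7.33%). Neither class showed a difference in share beyond counting error. The nearly equal shares of Veh and p38i macrophages stand beside their unequal CPM. NK cells had Hspa1a in 2.0% of Veh cells, 0 of 104 p38i cells (Clopper-Pearson upper limit 3.48% for cells with a UMI at this depth) and 3.06% of p38KO cells. At their own depth 1 of the 104 p38i cells had a UMI. No class is known to lack Hspa1a, so no share measures free RNA in the droplets. NK cells, with a median of 4165, 4598 and 5358 UMIs before thinning, had low shares in Veh and p38i only. S100a9 is a neutrophil marker. At the neutrophils' ratio of Hspa1a to S100a9, T cell S100a9 would bring 1.19, 0.25 and 0.19 Hspa1a UMIs (130, 38 and 78 found). In NK cells it would bring 0.21, 0.05 and 0.03 (12, 1 and 5 found). These values cover stray neutrophil RNA only. The interval of p38KO NK cells (3 of 98, 0.636 to 8.69%) is too wide to set neutrophil or T cell shares apart from theirs. It also comes from 1 library and does not measure free RNA in the others. By CPM, NK cells were lowest for Hspa1a in each library, and the neutrophil interval lay above theirs. The part of free RNA in these values was not tested.

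**Figure D4:**
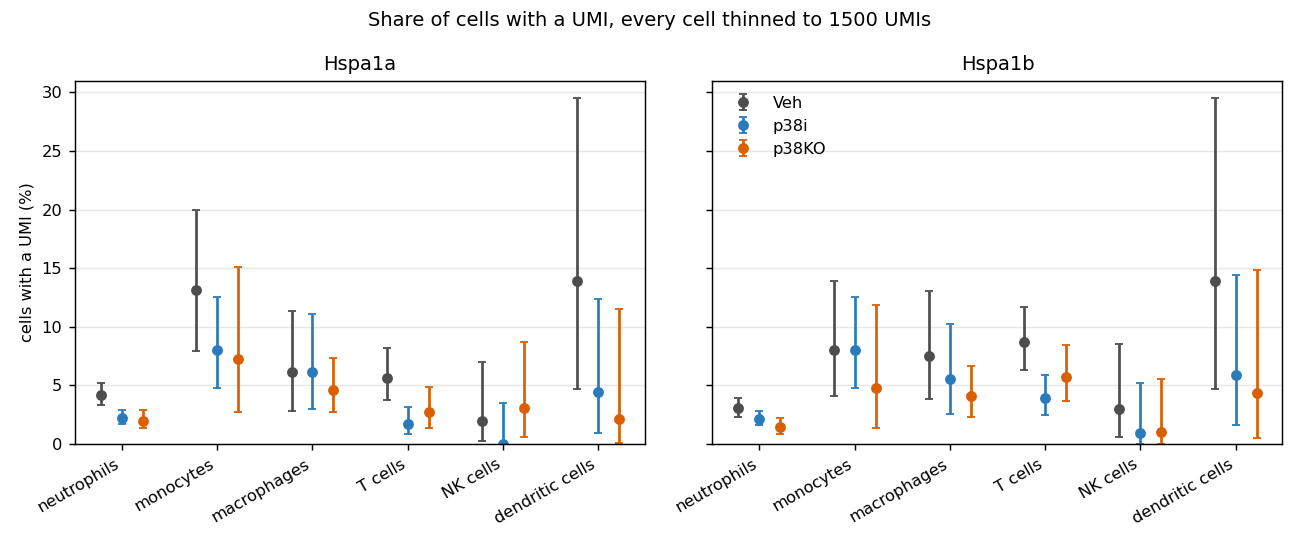
Share of cells (percent) with at least 1 UMI of Hspa1a or Hspa1b after thinning each cell to 1500 UMIs, by class and library, with Clopper-Pearson 95% intervals. Veh neutrophils (4.22%) and Veh T cells (5.65%) lie above their p38i counterparts (2.25% and 1.72%) for Hspa1a, and the macrophage intervals overlap.

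Hspa1a and Hspa1b were found in the same cells. Among thinned Veh neutrophils with Hspa1a, 35% also had Hspa1b, against 1.65% of those without. The shares were 40.7% against 1.28% in p38i and 24.1% against 0.987% in p38KO. Cells with both were 11.4, 18.8 and 16.6 times as many as the product of the separate shares gives. T cells showed the same pairing, with 65.4% against 5.30% in Veh, 80% against 2.62% in p38i and 54.5% against 4.34% in p38KO. In Veh neutrophils the pairing was not seen for the co-chaperone Dnajb1, present in 10% of cells with Hspa1a and 9.53% of those without. Hspa8 was present in 37.5% and 17.9%, and Hsp90aa1 in 57.5% and 35.3%. For the immediate-early genes Fos, Jun and Dusp1 the ratio of observed to product was 1.11, 1.45 and 0.963.

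The neutrophil difference was seen with and without the chemokine receptor Cxcr2, which rises as neutrophils mature. Hspa1a had 67.8, 25 and 20.4 CPM in neutrophils with a Cxcr2 UMI, at -1.44 and -1.73. It had 251, 62.8 and 46.1 CPM in those without, at -2.0 and -2.45, or -1.16 and -1.55 without the highest cell of each library, which in Veh was the one with 205 UMIs. The level was higher without Cxcr2 in each library. Hspa1b in neutrophils without Cxcr2 had 135, 72.8 and 122 CPM, so only p38i was called there (-0.89 against -0.15), while with Cxcr2 both were called (-1.22 and -2.06).

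T cell subsets did not share 1 pattern. In CD8 T cells, with a UMI of Cd8a or Cd8b1 and none of Cd4 or Foxp3, Hspa1a had 23.1, 4.54 and 44.7 CPM from 37, 6 and 27 UMIs. The p38i ratio was -2.35, and the p38KO ratio was 0.95 [0.18, 1.71], called higher, but 0.71 [-0.29, 1.66], no longer called, without the highest cell of each library. In T cells with Cd4 and without Foxp3, Cd8a or Cd8b1, levels were 133, 39.8 and 28.0 CPM from 54, 21 and 18 UMIs, at -1.74 and -2.25 [-3.10, -1.45]. The thinned shares with Hspa1a were 3.93%, 1.38% and 3.74% of CD8 T cells and 10.2%, 3.25% and 1.61% of these CD4 T cells. The p38KO library was therefore on opposite sides of Veh in the 2 subsets, from small counts. Hspa1b had 67.3, 5.30 and 41.4 CPM in CD8 T cells (-3.67 and -0.70) and 175, 87.1 and 29.6 in CD4 T cells (-1.01 and -2.56), called lower in both groups in either subset. Cells with Foxp3, the factor of regulatory T cells, had only 15, 2 and 4 Hspa1a UMIs.

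Macrophages split by the proliferation marker Mki67 differed in the p38i library. With Mki67, Hspa1a had 42.7, 3.33 and 60.9 CPM from 28, 26 and 86 cells, and p38i was at -3.68 [-6.79, -1.71] from 2 UMIs. Without Mki67 it had 58.2, 114 and 58.4 CPM, at 0.96 [0.57, 1.37] and 0.00. The cell with 89 UMIs belongs to the second set, where the p38i ratio without the highest cell of each library was 0.95. Dendritic cells without Ccr7 had 168, 65.5 and 38.2 CPM, at -1.36 and -2.14, and those with Ccr7 were too few to describe (3, 9 and 6 cells).

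**Figure D5:**
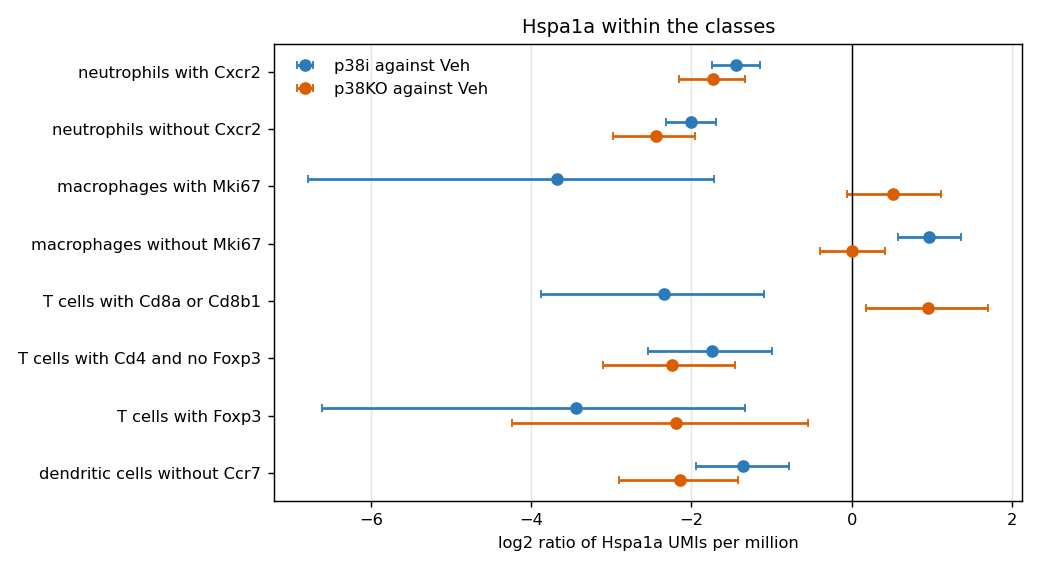
Log2 ratio of Hspa1a to the Veh library, with 95% counting intervals, for p38i and p38KO in subsets of the gated classes. Neutrophil and CD4 T cell subsets lie below 0 in both groups, and CD8 T cells lie at -2.35 for p38i and 0.95 for p38KO.

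Of the co-chaperones, Dnajb1 was called in no class and Hsph1 was called in 3. Dnajb1 had 65.7, 65.3 and 65.2 CPM in neutrophils, with ratios of -0.01 in both groups. Over the 6 classes its ratios ran from -0.89, in p38KO dendritic cells, to 0.38. It was the only member with its highest level in neutrophils in each library. Hsph1 had at most 3.43 CPM in neutrophils. In macrophages it had 32.2, 21.9 and 21.9 CPM, called lower in both groups at -0.56 each. In dendritic cells it had 53.0, 23.3 and 21.2 CPM from 25, 16 and 13 UMIs, at -1.19 and -1.32, also called, beside the lower Hspa1a of that class. In monocytes the order was the other way, with 7.54, 16.8 and 12.8 CPM from 9, 29 and 8 UMIs, called higher for p38i at 1.16. These calls were lost in 2 of 11 alternatives (p38KO) and 4 of 11 (p38i) in macrophages, 6 of 11 in dendritic cells for each group and 2 of 10 in monocytes.

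The constitutive Hsp70, Hspa8, was called in no class. It had 244, 278 and 233 CPM in neutrophils and from 909 to 1522 CPM elsewhere, with ratios between -0.22 and 0.35. Its neutrophil level was the lowest of the classes in each library, 5.15 to 6.30 times below macrophages. Hsp90ab1 was also called nowhere, with ratios between -0.34 and 0.31. Hsp90aa1, the inducible Hsp90, had 400, 370 and 346 CPM in neutrophils. It was called higher in p38i NK cells (417, 602 and 433 CPM, 0.53) and lower in p38KO dendritic cells (591, 478 and 360 CPM, -0.71). In monocytes it had 556, 419 and 401 CPM, at -0.41 and -0.47, which were not called. With cells held to 5 UMIs both calls were lost, at 0.08 in p38i NK cells and -0.30 in p38KO dendritic cells, and the NK call was lost in 6 of 11 alternatives.

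The mitochondrial chaperonin pair was called lower in p38KO monocytes and dendritic cells and nowhere else. Hspd1 had 77.9, 90 and 51.1 CPM in monocytes, at -0.61 for p38KO, and 163, 138 and 109 CPM in dendritic cells, at -0.58. Hspe1 had 120, 145 and 84.7 CPM in monocytes, at -0.50, and 426, 310 and 298 CPM in dendritic cells, at -0.51. All 4 called values lay between -0.61 and -0.50, near the threshold. In monocytes each was lost in 8 of 11 alternatives, and Hspe1 was at 0.06 when cells of several gates were also placed in a class. In dendritic cells Hspd1 was lost in 5 and Hspe1 in 9 of 11, with -0.30 and -0.34 without the highest cell and -0.21 and -0.10 with cells held to 5 UMIs. In neutrophils the 7 members other than the Hspa1 pair summed to 950, 962 and 855 CPM, while the pair was at -1.42 and -1.61. Members called lower in both groups were Hspa1a and Hspa1b in neutrophils, Hspa1b in T cells and in NK cells, Hsph1 in macrophages, Hspa1a and Hsph1 in dendritic cells, and none in monocytes.

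Levels also differed between classes within a library. In Veh, Hspa1a ran from dendritic cells and monocytes, whose intervals overlapped, through neutrophils to macrophages and T cells, which also overlapped, and NK cells, 8.45 times below dendritic cells. In p38i the order was monocytes, then macrophages and dendritic cells, which overlapped, then neutrophils, T cells and NK cells. In p38KO monocytes were highest and NK cells lowest, and neighbouring classes between them overlapped. Hsph1, Hspa8, Hsp90aa1, Hsp90ab1, Hspd1 and Hspe1 were lowest in neutrophils in each library, by 22.2, 15.1 and 15.3 times for Hsph1 against the highest class. Cells outside the classes gave the same direction for Hspa1a: cells of no gate had 293, 147 and 93.9 CPM (-0.99 and -1.64), and cells of several gates had 143, 81.8 and 51.6 CPM (-0.80 and -1.47). Over all kept cells Hspa1a had 127, 70.1 and 49.9 CPM, from 2633, 1698 and 1217 UMIs, at -0.85 and -1.34. In each library most of these UMIs lay in cells outside the classes, so the class values describe the smaller part of them. In Veh the cells of no gate (293 CPM) were above every class, the highest being dendritic cells at 172 CPM.

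The other chaperone genes, 88 in all, took in further Hsp70, Hsp40 and small heat-shock genes, partners of Hsp70 and Hsp90, the TRiC chaperonin with prefoldin, and chaperones of the endoplasmic reticulum and mitochondria. In neutrophils none of the 80 with enough counts was called lower and 7 were called higher for p38i. For p38KO, 3 of 78 were called lower and 3 higher. Their median log2 ratio was 0.19 and 0.02, beside 0.15 and 0.09 over all genes. In T cells 1 of 79 was lower and 1 higher for p38i, and none lower and 3 higher for p38KO, with medians of 0.03 and -0.02 beside 0.08 and 0.12. Summed over the 6 classes, 11 calls were lower and 14 higher for p38i, and 9 lower and 20 higher for p38KO. That was 2.4% and 3.06% of those with enough counts for p38i, beside 3.75% and 5.7% of all genes over the same classes, and 1.99% and 4.42% for p38KO, beside 3.95% and 6.84%. Genes called the same way in both groups were Grpel2, a nucleotide exchange factor of mitochondrial Hsp70, in neutrophils (2.22, 5.63 and 5.04 CPM, 1.35 and 1.18), the prefoldin subunit Pfdn4 in neutrophils (6.48, 10.4 and 11.9 CPM, 0.69 and 0.88) and the calcyclin-binding protein Cacybp in NK cells (83.0, 133 and 144 CPM, 0.68 and 0.80). All 3 were higher. Of 8 heat-shock factors and further HSF1 targets, none was called in T cells or in p38KO neutrophils, and Hsf2, picked after its value was seen, was called higher in p38i neutrophils.

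Immediate-early genes, which are induced by stress and by tissue dissociation as well as by growth signals, went the same way as Hspa1a in some classes only. The tumors had been digested with a cold-active protease to limit such signatures. Of a list of 23 such genes, in neutrophils 6 were called lower and 2 higher for p38i, and 2 lower and 2 higher for p38KO. Summed, the list stood at -0.52 for p38i and 0.11 for p38KO in neutrophils, -0.47 and 0.07 in T cells, -0.70 and -0.21 in monocytes, -0.57 and -0.48 in macrophages, -0.78 and -0.47 in NK cells, and -0.82 and -0.76 in dendritic cells. In p38KO neutrophils the list stood at 0.11 and Hspa1a at -2.13, and in p38i macrophages they stood at -0.57 and 0.69. Its most abundant genes were Junb, Jund and Ier3, and Junb had 2425, 1893 and 3121 CPM in neutrophils. Dusp1, the phosphatase that switches off p38 and JNK, was called lower in all 6 classes in both groups, with 2158, 689 and 1455 CPM in neutrophils (-1.65 and -0.57) and 76.9, 23.3 and 52.6 in T cells (-1.72 and -0.55). Fos was called lower in 6 classes for p38i and 4 for p38KO. In T cells Jun had 222, 78.6 and 222 CPM, at -1.50 and 0.00. Dusp1, Fos and Jun were picked after their values were seen. Of 10 housekeeping genes, none was called in neutrophils, T cells, NK cells or dendritic cells in either comparison, and its most abundant genes Actb, Tpt1 and Eef1a1 were called in none. Pgk1, picked after its value was seen, was called lower in p38KO macrophages. The part of the immediate-early response in the Hsp70 values was not tested.

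Other values also differed between the libraries. Median UMIs per cell were 2484, 2235 and 2155 in neutrophils, 9377, 13763 and 9768 in macrophages and 4900, 3865 and 4609 in T cells. The median mitochondrial share of neutrophils was 0.327%, 0.399% and 0.559%. Mast cell markers (Cpa3, Mcpt4 and Fcer1a) summed to 1.02, 1.10 and 105 CPM in neutrophils, 0, 0 and 112 in T cells and 0, 1.54 and 865 in NK cells, so p38KO stood apart. Neutrophil markers (led by S100a9, S100a8 and G0s2) summed to 1106, 1017 and 363 CPM in monocytes and 2024, 1387 and 948 in macrophages. Macrophage markers (led by Apoe, C1qb and C1qc) were 63.6, 54.5 and 163 in T cells and 411, 605 and 621 in neutrophils. B cell markers (Cd79b, Cd79a and Ms4a1) were 94.7, 19.2 and 4.79 in monocytes, so Veh stood apart there. Tumor and stroma markers (led by Epcam, Krt18 and Krt8) were 24.0, 11.4 and 90.5 in macrophages, and the NK list in NK cells had 8578, 8088 and 5145. The part of these values in the Hsp70 ratios was not tested.

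The gene with the pattern most like Hspa1a was Hspa1b. Over 18 points (6 classes in 3 libraries, on log2 of CPM plus 10 and centred within each class) and 10566 genes, Pearson's r was 0.84 for Hspa1b, 0.80 for Syvn1, 0.80 for Smpd5, 0.76 for Mapk1ip1 and 0.74 for Nbdy and Snhg6. Fos stood at 0.71 and Jun at 0.70, ranks 14 and 16, and Dusp1 at 0.54, rank 190. The other members ranked from 389 for Hspd1 and 776 for Dnajb1 to 3290 for Hsph1. Syvn1, Smpd5 and Nbdy were called against Veh in no class, with Syvn1 at 12.6, 11.0 and 10.3 CPM in neutrophils. Mapk1ip1 and Snhg6 were called lower in p38KO neutrophils, and Snhg6 also in p38KO dendritic cells. The 18 points share 3 libraries, so these values describe likeness over these libraries only.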

How the data were processed

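Single-cell RNA sequencing of live CD45+ cells was analysed for Veh, p38i and p38KO, with 1 library pooled from 3 tumors each. The deposited values are raw UMI counts per gene and cell barcode, made by the authors with Cell Ranger (6.0.0 in the file headers). They were not normalized, and the build and annotation of their reference are not given in the sources used here. The submitters' processing notes also list R 4.2.1 and Seurat 5, which made none of the values used.

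The study's limits on cells were applied (at least 1500 UMIs, at least 300 genes, at most 20% mitochondrial UMIs). Counts were summed per library and gated class. CPM carry exact Poisson intervals, log2 ratios exact conditional binomial intervals, and shares exact Clopper-Pearson intervals, all at 95%, and 0.5 stood in for a count of 0. No test was made, since each group is 1 library. Depth per class ran from 471803 to 7278285 summed UMIs, so the same fold has a wider interval in dendritic and NK cells. For shares and joint detection each cell was thinned to 1500 UMIs without replacement (seed 1). The members, the gates and the gene lists were chosen with earlier results of these data known. Named are all members, the other chaperones called the same way in both groups, the 5 genes most like Hspa1a among those with at least 100 counts, and the 3 most abundant genes of each accompanying list. The call rule was tested on simulated class sums drawn as independent Poisson counts. These do not copy the concentration of UMIs in single cells seen here, and thinning was not part of that test. Sequences came from RefSeq on GRCm38.p6 and positions from GENCODE vM21 on GRCm38. Values of 1 listed gene are not reported here. A promoter for Hspa8, Hsp90aa1 and Hsp90ab1 was not used here. Alternatives changed the cell filter, gates, scaling, depth, call threshold and weight of single cells, and the closing section gives their effect. Python 3.11.15, numpy 2.4.6, scipy 1.17.1, pandas 2.3.3 and matplotlib 3.10.9 were used.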

Additional observations from a re-analysis of the deposited data

Results flagged for a closer look

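Ratios of 1 comparison lay on opposite sides of 0 in different cell classes for 2 members, and on opposite sides in subsets of 1 class for Hspa1a. None of these differences between classes was tested, since each rests on 1 library per group. For p38i against Veh, the log2 ratio of Hspa1a was -1.72 in neutrophils, -1.78 in T cells and -1.56 in dendritic cells, but 0.69 in macrophages. The macrophage ratio kept its sign in only 6 of 12 alternatives (-0.93 to 0.80), and 1 cell held 89 of the 193 p38i UMIs. Those 6 include the sum with Hspa1b. Within macrophages the Hspa1a ratio was -3.68 in the 28, 26 and 86 cells with Mki67 (33 Veh and 2 p38i UMIs) and 0.96 in those without. For p38KO against Veh, Hspa1a was 0.95 in CD8 T cells (0.71 [-0.29, 1.66] and not called without the highest cell of each library) and -2.25 in CD4 T cells without Foxp3, with thinned shares of positive cells of 3.93% and 3.74% in Veh and p38KO CD8 T cells and 10.2% and 1.61% in the CD4 T cells. Hsph1 under p38i was 1.16 in monocytes, -0.56 in macrophages and -1.19 in dendritic cells, from 9 Veh and 29 p38i UMIs in monocytes.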

How the results depend on the processing

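No paired analysis was possible because each group has 1 library, and no library could be left out for the same reason. Of 292 alternative values of the 26 called member ratios, 9 changed sign. The cause was not tested in any case. As reported, 2 members in neutrophils, 2 in dendritic cells, 1 each in macrophages, T cells and NK cells and none in monocytes were called lower in both groups, and the other chaperones had 11 lower and 14 higher calls for p38i and 9 and 20 for p38KO.

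With Hspa1a and Hspa1b summed, the ratio was -1.42 and -1.61 in neutrophils (p38i and p38KO), 0.13 in p38i macrophages and -0.97 in p38i dendritic cells. With at least 2 UMIs of a gate transcript, Hspa1a was -0.80 and -1.29 in neutrophils, -0.50 and -0.93 in macrophages and -4.42 in p38KO NK cells, 2 members were lower in both groups in macrophages, 2 in T cells and 1 in dendritic cells, and 17 other chaperones were lower for p38i. With a monocyte gate of Ly6c2 or Fn1, Hspa1a was -2.48 in p38KO neutrophils, -0.54 in p38i monocytes, -0.74 and -2.08 in macrophages, -0.97 in p38KO T cells, 0.83 in p38KO NK cells and -0.97 in p38i dendritic cells, and Hsph1 was 0.73 in p38i macrophages. Members lower in both were then 2 in monocytes, 3 in macrophages, 2 in T cells and 1 in dendritic cells, with 6 other chaperones lower for p38i and 11 higher for p38KO. With cells of several gates placed by most UMIs, Hspa1a was -0.93 and -1.13 in macrophages, Hspe1 was 0.063 in p38KO monocytes, and 3 members were lower in both in macrophages.

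With every cell counting equally, Hspa1a was -2.03 and -2.81 in neutrophils and -0.82 and -0.60 in macrophages. Members lower in both were then 1 in monocytes, 4 in macrophages, 2 in T cells and 1 in dendritic cells, and other chaperones numbered 21 lower and 23 higher for p38i and 18 lower for p38KO. With cells thinned to 1500 UMIs, Hspa1a was -2.01 and -2.71 in neutrophils, -0.73 and -0.57 in macrophages and -1.04 in p38KO T cells, and Hspe1 was 0.012 in p38KO monocytes. Members lower in both were then 2 in macrophages, 2 in T cells and 0 in NK and dendritic cells, with 7 other chaperones lower and 8 higher for p38i and 7 higher for p38KO. Without the deepest 5% of cells, Hspa1a was -2.74 in p38KO neutrophils and -0.21 in p38KO macrophages, members lower in both were 0 in macrophages, 2 in T cells and 1 in dendritic cells, and 11 other chaperones were higher for p38KO.

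Without a cell filter, Hspa1a was -1.70 in p38KO neutrophils and 1 member was lower in both in monocytes, as it was with at most 5% mitochondrial counts. Median-ratio scaling left 0 in macrophages. A call threshold of 1 left 0 in macrophages and T cells, with 3 lower and 6 higher other chaperones for p38i and 3 and 4 for p38KO. Of the settings chosen after seeing the data, leaving out the cell with most UMIs gave -1.33 and -1.77 in neutrophils, with 2 members lower in both in T cells and 0 in NK cells. Counting at most 5 UMIs per cell gave -0.93 and -1.08 in neutrophils and -0.13 and -0.39 in macrophages, with 2 members lower in both in macrophages, 0 in T and NK cells and 1 in dendritic cells. Hspa1a in p38i NK cells had no value under the wider monocyte gate, under thinning and without its top cell, nor had Hsph1 in monocytes under thinning. Few cells limit dendritic and NK cell values, and counting intervals leave out the spread between mice.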
